A study of Mus musculus with 6 samples.

Results

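The genes described here are the transcription factors and regulators that stand downstream of the Notch receptors, Hes1, Hes6, Hey1, Hey2, Heyl, Nrarp, Rbpj, Dtx1 and Id3, together with Myc. They were chosen by name, as the rows of the count table whose gene symbol equals one of these 10 names, and the transcripts of each symbol were summed. All 10 symbols were present among 13730 genes, on 14 of the 20648 transcripts in the table. The samples were 6 tumors, 3 from control mice and 3 from mice given sulindac sulfide (SS) by mouth at 60 mg/kg each day for 14 days after a tumor could be felt. Both groups were female FVB mice aged 6 to 10 weeks at grafting that received C0321 cells, given with Matrigel, in the mammary fat pad. C0321 is a mouse triple-negative breast cancer (TNBC) line derived from a Lunatic Fringe knockout (Lfng-/-) mouse of FVB background, so the tumor cells of both groups carry that deletion and the cells of the host do not. All 6 tumors thus come from 1 cell line. The sample labels name the drug as Sulindac Sulfate where the paper names sulindac sulfide, and the control is saline in the series text and vehicle in the paper. Each sample was a piece of whole tumor, in which fewer cells of a type and less RNA per cell cannot be told apart.

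Notch is a receptor that is cut by γ-secretase once a ligand on a neighboring cell binds it, and its freed intracellular domain moves to the nucleus. There it joins RBPJ, the DNA-binding protein of the pathway, and turns a set of repressed genes on. Hes and Hey genes, which encode basic helix-loop-helix repressors, are the best-known direct targets, and Nrarp and Dtx1 encode proteins that feed back on the pathway. Myc is a target of Notch in several cancers and also answers to many other signals. The question behind the comparison was whether a drug with γ-secretase modulator activity changed the RNA of these genes in the tumors.

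Promoter sequence from RefSeq (GRCm38.p6), 250 bases before and 50 after the start of a transcript, was matched for 6 of the 10 genes. These were Hes6, Hey2, Nrarp, Rbpj, Dtx1 and Id3. Hes1, Hey1, Heyl and Myc had no matched promoter and were not searched. GTGGGAA, the core of the RBPJ motif, and CACGTG, the E-box bound by MYC and by several HES and HEY proteins, were searched on both strands. The RBPJ core was in 6.38% of 32851 promoters of this length, and 2 or more copies were in 0.256% of them. Among the 6 genes it was found in Hey2 alone, which held 2 copies, at positions -207 to -201 on the opposite strand and from position -4 to 3 on the strand of the gene, counted from the first transcribed base. The E-box was in 7.15% of all promoters and, among the 6 genes, in Nrarp alone, at positions -108 to -103. These 2 windows are shown up to the start of transcription because they are the ones that hold a motif of the factors described here, with the letters of the motifs in capitals. The printed Hey2 window ends inside its second RBPJ core.
Hey2, chr10:30842784-30843033, minus strand: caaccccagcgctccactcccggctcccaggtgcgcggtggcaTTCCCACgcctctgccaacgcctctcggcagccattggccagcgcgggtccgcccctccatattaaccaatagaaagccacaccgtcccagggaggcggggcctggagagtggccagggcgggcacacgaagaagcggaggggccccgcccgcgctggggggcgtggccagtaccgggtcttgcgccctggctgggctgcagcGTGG
Nrarp, chr2:25180508-25180757, plus strand: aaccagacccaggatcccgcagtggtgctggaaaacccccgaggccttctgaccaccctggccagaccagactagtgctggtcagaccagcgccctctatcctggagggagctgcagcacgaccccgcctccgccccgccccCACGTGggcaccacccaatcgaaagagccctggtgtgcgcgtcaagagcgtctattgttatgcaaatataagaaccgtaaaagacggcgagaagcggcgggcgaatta

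Totals ranged from 8468914 to 24441522 estimated counts per tumor, and the 3 control libraries included both of the largest. Levels below are counts scaled to a TMM-adjusted library total (CPM, edgeR's unit). A floor of 3 counts, taken on totals before the TMM factor, stood at between 0.123 and 0.354 CPM. On the adjusted scale it reached 0.358 CPM, in SS tumor 2. Of the receptor genes that define TNBC by their absence, Erbb2 was between 17.1 and 22.4 CPM, Esr1 between 4.48 and 6.40 CPM and Pgr between 0 and 3.82 CPM. The 8 mesenchymal markers summed to between 11500 and 14700 CPM and the 9 epithelial markers to between 507 and 958 CPM. Lfng was at between 4.65 and 6.40 CPM in the 6 tumors, which also hold host cells, and whether these reads lie outside the deleted part was not tested. Control tumor 1, SS tumor 1 and SS tumor 2 stood apart from the others in genes of normal fat and basal mammary epithelium. The 7 adipocyte markers in the table summed to 203, 29.0 and 13.7 CPM in control tumors against 108, 113 and 55.9 CPM in SS tumors, although Adipoq, which defines the cell type, was at 0.596 CPM or less. Lpl made up most of each sum, at 156, 28.6 and 13.7 CPM in control tumors against 95.2, 93.2 and 55.2 CPM in SS tumors. Plin1 was at 37.8, 0.0983 and 0 CPM in control tumors against 8.06, 14.7 and 0 CPM in SS tumors. Krt5, a basal keratin, was at 73.1, 1.13 and 1.44 CPM in control tumors against 33.9, 26.7 and 0 CPM in SS tumors.

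Hes1 and Myc, the most studied targets of the group, had lower mean levels in SS-treated tumors, at 0.752 and 0.805 of the control level, and neither this nor any other difference of the group passed adjustment over all genes. In edgeR's quasi-likelihood test, 9 of the 10 genes passed the filter on low counts, all but Hey2. Of these, 7 had a log2 fold change below 0 and 2 above it, with a median of -0.19, where all 10902 genes tested had a median of -0.001 and 50.2% lay below 0. An unadjusted p under 0.05 was reached by 2 of the 9, Hes1 and Myc, both lower in SS tumors, where 3.16% of all genes tested were lower by this rule and 6.36% were called in either direction. After Benjamini-Hochberg adjustment over all genes in edgeR, 0 of the 10902 passed, against 693 at an unadjusted p under 0.05 and 35 after adjustment by DESeq2's Wald test. None of the 35 was a gene of this group. DESeq2 gave no adjusted p for Hes6, Hey1, Heyl, Nrarp and Dtx1, which therefore could not be among them. The directions given here are a description of these 6 tumors, since no difference passed adjustment in edgeR.

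**Figure D1:**
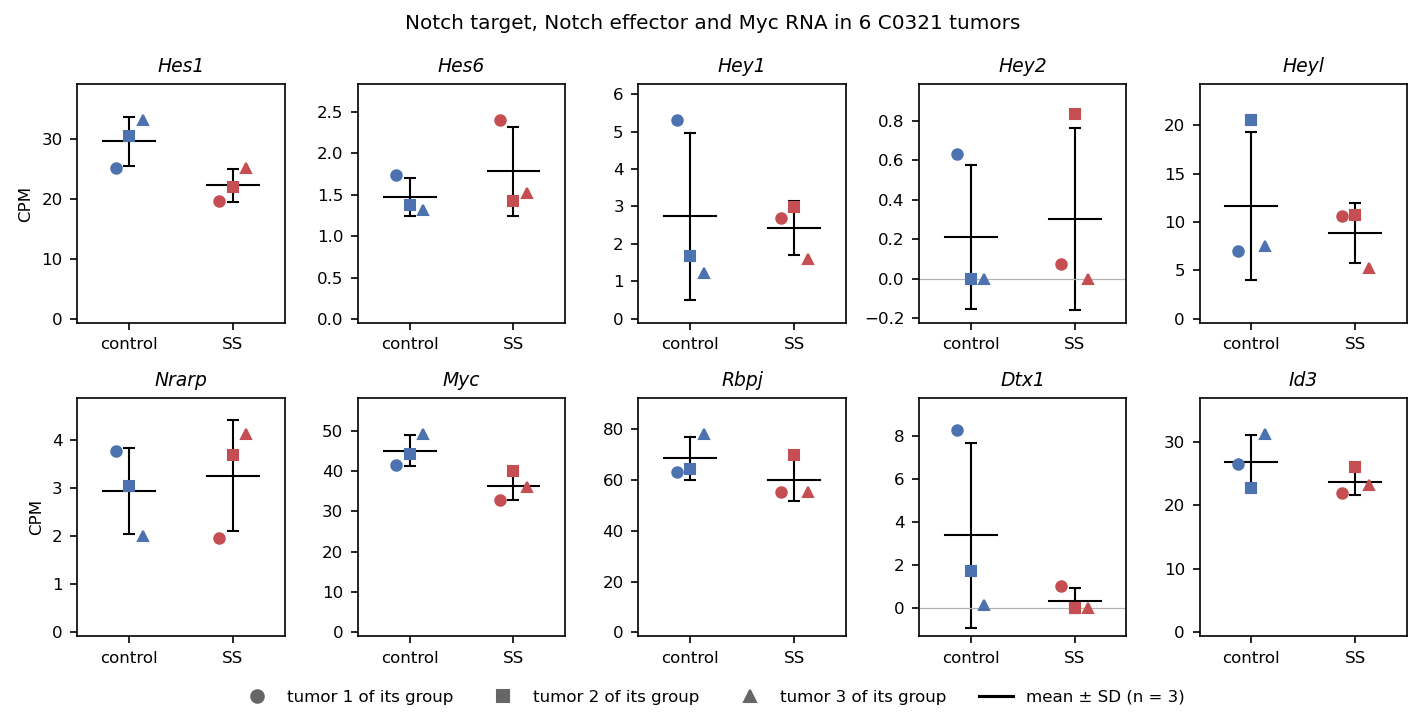
CPM of the 10 genes in each tumor, by group, with the marker shape giving the tumor number, the horizontal line the mean and the error bar the SD (n = 3). The control values of Myc all lie above the SS values, those of Hes1 overlap by 1 pair, and Hey2 and Dtx1 sit at or near 0 in most tumors.

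Hes1 encodes the repressor that most directly reads out Notch activity in many tissues. It lies (mm10) on chromosome 16 from 30065357 to 30067797. In control tumors 1, 2 and 3 it was at 25.1, 30.5 and 33.1 CPM, and in SS tumors 1, 2 and 3 at 19.7, 21.9 and 25.2 CPM. The highest SS tumor therefore just exceeded the lowest control, and the other values did not overlap. The means were 29.6 ± 4.12 CPM (SD, n = 3) and 22.3 ± 2.77 CPM (SD, n = 3), which edgeR put at a log2 fold change of -0.41 ± 0.17 (SE) with a 95% interval from -0.80 to -0.02. In edgeR the unadjusted p was 0.0428 and the adjusted p 0.771. An exact two-sided permutation test over the tumors gave p = 0.2, where 0.1 is the smallest that 3 against 3 allows. With between 184 and 807 counts per tumor, counting error was at most 7.37% of the value.

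Hes6 encodes a relative that binds HES1 and opposes its repression. It was much lower, at 1.74, 1.38 and 1.31 CPM in control tumors against 2.40, 1.43 and 1.52 CPM in SS tumors. The groups overlapped, and SS tumor 1 alone stood above the rest. The log2 fold change was 0.28 ± 0.45 (SE) with a 95% interval from -0.76 to 1.32, and it was 0.003 without SS tumor 1. Here counting error reached 28.9%, from 12 counts in SS tumor 2.

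The Hey genes encode repressors with a main role in vessels and the heart, and in a tumor much of their RNA can come from endothelial cells and pericytes. Hey1 was at 5.30, 1.67 and 1.23 CPM in control tumors against 2.69, 2.98 and 1.61 CPM in SS tumors. Control tumor 1 was the highest and the other control tumors lay near or below the lowest SS tumor. The log2 fold change was -0.16 ± 0.62 (SE), and it was 0.73 without control tumor 1 and 0.065 without SS tumor 3, so its sign was not stable. Heyl, which marks pericytes and vascular smooth muscle, was at 6.96, 20.5 and 7.55 CPM in control tumors against 10.6, 10.7 and 5.24 CPM in SS tumors. Control tumor 2 alone raised the control mean, and the log2 fold change of -0.41 ± 0.48 (SE) became 0.29 without it. Hey2 was near absent, with 8, 0 and 0 counts in control tumors and 1, 7 and 0 counts in SS tumors. On totals before the TMM factor, a count of 0 allows up to 0.146 CPM in control tumor 2, 0.123 CPM in control tumor 3 and 0.248 CPM in SS tumor 3. No fold change is given for it.

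Markers of the cell types that use Hey genes differed in level between tumors. Of 12 endothelial markers, 10 were in the table, and their summed CPM was 167, 149 and 113 in control tumors against 151, 260 and 145 in SS tumors. Cdh5, the cadherin of endothelial junctions, was at between 22.2 and 47.5 CPM, while Pecam1, another defining marker, was at 0.596 CPM or less. In edgeR's test Vwf, a blood clotting factor made by endothelium, had a log2 fold change of 1.20 (unadjusted p = 0.0191) and the junction gene Esam 0.58 (unadjusted p = 0.0356), and both had groups that did not overlap. They were 2 of the 9 tested endothelial markers, where 3.19% of all genes tested were higher in SS tumors by this rule and 12.9% had groups that did not overlap in either direction. The median log2 fold change of the list was 0.32. The unadjusted p of Vwf was above 0.05 without control tumor 2, control tumor 3 or SS tumor 2, and that of Esam without control tumor 1, control tumor 3, SS tumor 2 or SS tumor 3. Of the 12 tested pericyte and smooth muscle markers, 0 reached an unadjusted edgeR p under 0.05, and the list summed to 1120, 1880 and 1390 CPM in control tumors against 1010, 2160 and 1780 CPM in SS tumors. Acta2 and Des made up most of this sum. Acta2 was at between 625 and 843 CPM, and Des at 227, 770 and 423 CPM in control tumors against 54.4, 1060 and 916 CPM in SS tumors. Rgs5, of the same list, was at between 12.8 and 19.6 CPM. Tumors high in Hey1 and Hey2 were also those high in Krt5 and in the adipocyte marker sum, which was mostly Lpl. These were control tumor 1 and SS tumors 1 and 2 for Hey1, and control tumor 1 and SS tumor 2 for Hey2. The part of tissue composition in the Hey values was not tested.

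Nrarp encodes an ankyrin-repeat protein that is induced by Notch and promotes the loss of its intracellular domain. It was at 3.79, 3.05 and 2.01 CPM in control tumors against 1.96, 3.70 and 4.14 CPM in SS tumors. The ranges of the groups were almost the same, from 2.01 to 3.79 CPM and from 1.96 to 4.14 CPM. Its log2 fold change was 0.15 ± 0.43 (SE), and the interval from -0.86 to 1.16 leaves room for a change of up to about a log2 unit either way.

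Dtx1 encodes an E3 ubiquitin ligase that binds the intracellular part of Notch and is a Notch target in lymphocytes. It showed the widest difference of the group, and also the widest spread. There were 105, 35 and 3 counts in control tumors against 14, 0 and 0 counts in SS tumors, which is 8.30, 1.72 and 0.123 CPM against 1.02, 0 and 0 CPM. Control tumor 3 lay below SS tumor 1, so the groups overlapped, and most of the control mean came from control tumor 1. For Dtx1 the log2 fold change was -3.15 ± 1.63 (SE) with a 95% interval from -6.93 to 0.63 (unadjusted p = 0.0906, adjusted p = 0.792 in edgeR's test). Without control tumor 1 it was -1.31, and the unadjusted p was 0.44. Without control tumor 3 it was -3.72. The unadjusted edgeR p was under 0.05 without control tumor 3 (unadjusted p = 0.0358) and without SS tumor 1 (unadjusted p = 0.0291), where both remaining SS tumors are at 0 counts and the fitted value, -8.70, is no bound. Control tumor 1 was also the highest tumor in genes of T cells. Cd3e, a chain of the T cell receptor complex, was at 45.8, 12.0 and 7.63 CPM in control tumors against 19.9, 12.6 and 4.06 CPM in SS tumors. Tcf7, a transcription factor of T cells and a reported Notch target, was at 37.2, 15.6 and 8.37 CPM in control tumors against 10.0, 7.75 and 6.25 CPM in SS tumors. Cd4 was at 1.98 CPM in control tumor 1 and at 0.871 CPM or less in the other tumors. Cd79a of B cells was at 0.949 CPM in control tumor 1 and at 0 in the other 5 tumors, and Cd3g and Cd8a had no row in the table used here. The summed CPM of the 10 leukocyte markers in the table did not follow this order, at 524, 527 and 577 in control and 734, 580 and 633 in SS tumors. Most of this sum was Csf1r, at 322, 395 and 437 CPM in control tumors against 448, 359 and 442 CPM in SS tumors. Cd3e and Cd4 were a small part of it. Of the 7 tested leukocyte markers, 5 had a log2 fold change above 0, as did 5433 of all 10902 genes tested. Itgax, an integrin of dendritic cells and macrophages, was the 1 with an unadjusted p under 0.05, where 6.36% of all genes tested were called. Itgax was at 66.9, 49.4 and 50.9 CPM in control tumors against 173, 131 and 89.6 CPM in SS tumors. Its groups did not overlap, as for 12.9% of all genes tested, and its log2 fold change was 1.24 (unadjusted p = 0.001, adjusted p = 0.679 in edgeR). Whether lymphocytes carried the Dtx1 RNA was not tested.

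**Figure D2:**
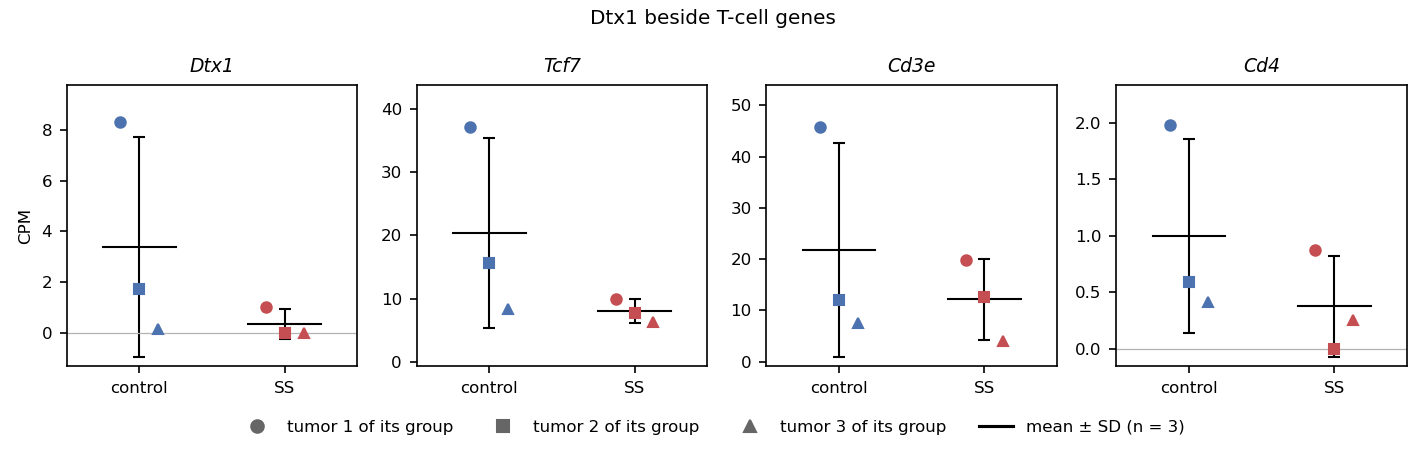
CPM of Dtx1 and of 3 genes used by T cells in each tumor, by group, with marker shapes for the tumor number and the mean and SD (n = 3) in black. Control tumor 1 is the highest of the 6 tumors in every panel, and within the SS group tumor 1 is the highest.

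Rbpj encodes the DNA-binding protein through which all Notch receptors act. It was at 63.1, 64.3 and 78.2 CPM in control tumors against 55.2, 70.0 and 55.2 CPM in SS tumors. SS tumor 2 lay above control tumors 1 and 2, and the other SS tumors lay below every control. The log2 fold change of -0.19 ± 0.15 (SE) had a 95% interval from -0.53 to 0.15, and it was -0.083 without control tumor 3. Id3, an inhibitor of basic helix-loop-helix proteins that answers to both BMP and Notch signals, was at 26.6, 22.7 and 31.3 CPM in control tumors against 21.9, 26.0 and 23.2 CPM in SS tumors. SS tumors 2 and 3 lay between the lowest and the highest control, and the groups overlapped. Its log2 fold change was -0.18 ± 0.17 (SE), and it was -0.054 without control tumor 3, the highest of the 6 tumors.

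Myc, a transcription factor of growth and ribosome production, lies on chromosome 15 from 61985341 to 61990362. It was at 41.5, 44.3 and 49.2 CPM in control tumors against 32.9, 39.9 and 36.0 CPM in SS tumors. Every SS tumor lay below every control tumor, which held for 1 of the 9 tested genes of the group and, in either direction, for 12.9% of all genes tested. The means were 45.0 ± 3.90 CPM (SD, n = 3) and 36.3 ± 3.51 CPM (SD, n = 3), and the exact two-sided permutation test gave p = 0.1, the smallest possible. The log2 fold change was -0.31 ± 0.13 (SE) with a 95% interval from -0.62 to -0.01, and edgeR gave an unadjusted p of 0.0461 that became 0.771 after adjustment. The unadjusted p of Hes1 stayed under 0.05 in 10 of 15 other settings of the analysis and that of Myc in 8 of 15. With 1 tumor left out at a time the count was 2 of 6 for each gene. It stayed under 0.05 without control tumor 1 or SS tumor 3 for Hes1, and without control tumor 1 or SS tumor 2 for Myc, and leaving out any other tumor lifted it to at most 0.14 and 0.154. These fits put the log2 fold change of Hes1 between -0.52 and -0.32 and that of Myc between -0.39 and -0.24.

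**Figure D3:**
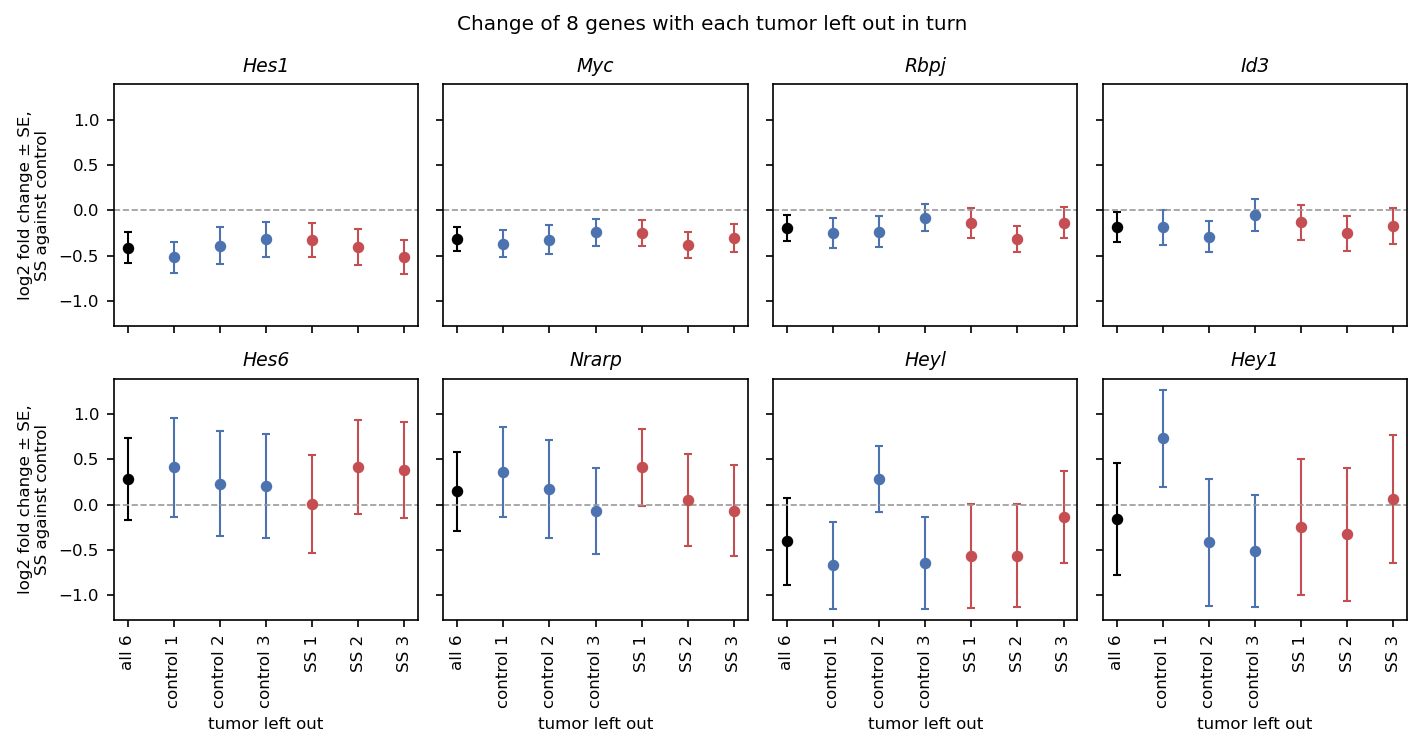
Log2 fold change (SS against control) of 8 genes with its standard error, from all 6 tumors in black and with 1 control tumor (blue) or 1 SS tumor (red) left out. Hes1, Myc, Rbpj and Id3 stay below 0 throughout, whereas Hey1 runs from -0.51 to 0.73 and Heyl from -0.67 to 0.29.

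Across genes, levels were compared per length, as CPM per kb of transcript averaged over the 6 tumors. Id3 had the highest level at 19.8 ± 2.72 CPM per kb (SD, n = 6), then Myc at 18.7 ± 2.68, Hes1 at 17.7 ± 3.46 and Rbpj at 11.8 ± 1.63 CPM per kb (SD, n = 6 for each). These 4 genes overlapped with their neighbors in this order over the tumors. A clear step followed, since the lowest Rbpj value, 10.1 CPM per kb, lay above the highest of Heyl, 4.53 CPM per kb. Heyl averaged 2.26, Hes6 1.22, Nrarp 1.20 and Hey1 1.06 CPM per kb, with ranges that overlapped from each to the next. Dtx1, at 0.461 CPM per kb, and Hey2, at 0.101 CPM per kb, came last, and both were at 0 in some tumors. The Dtx1 mean rested on control tumor 1, at 2.06 CPM per kb, where Dtx1 lay above Heyl (1.53), Nrarp (1.47) and Hes6 (1.30 CPM per kb), and the other 5 tumors were at 0.426 CPM per kb or less. Over the SS tumors alone Dtx1 averaged 0.0839 and Hey2 0.119 CPM per kb, so the order of these 2 turns. Among Hes and Hey genes Hes1 was therefore the main transcript of these tumors, in each of the 6 samples.

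On mm10, Hes6 lies on chromosome 1 from 91411483 to 91413223, Hey1 on chromosome 3 from 8663359 to 8667039 and Hey2 on chromosome 10 from 30832359 to 30842784. Heyl and Id3 lie on chromosome 4, from 123233556 to 123249871 and from 136143822 to 136145393. Nrarp lies on chromosome 2 from 25180758 to 25183333, and Dtx1 on chromosome 5 from 120680264 to 120711670. Myc and Rbpj were the genes of the group with more than 1 transcript in the table. The 4 Myc transcripts share 1 genomic span, and their estimated counts were equal in pairs, NM_001177352 with NM_010849 and NM_001177353 with NM_001177354, so the table splits the reads evenly within a pair. NM_001177353 held 25.8%, 25.8% and 28.7% of Myc in control tumors and 25.8%, 25.8% and 30.9% in SS tumors. The share was thus the same to 3 digits in 4 of the 6 tumors and higher in tumor 3 of each group. The shorter span of Rbpj, NM_001080927 from 53590486 on chromosome 5, held between 87.4% and 95.9% of its counts. NM_009035, which starts upstream at 53590346, was at 8.80%, 6.69% and 7.68% in control tumors and 11.8%, 12.6% and 4.06% in SS tumors. The SS tumors lay on both sides of the controls. Among the transcripts of the group, 0 had an unadjusted edgeR p under 0.05 over 15132 transcripts, where 5.58% did, and Hes1, with 1 transcript, had an unadjusted p = 0.0553 in that fit.

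Other genes of the pathway were read from lists. Of 124 tested genes in 10 lists of relatives, cofactors, upstream components and targets, 11 had an unadjusted edgeR p under 0.05, 5 higher and 6 lower in SS tumors. That is 8.87%, against 6.36% of all genes, and the median log2 fold change was -0.013. None passed adjustment. With each tumor left out in turn, Bhlhe40 and Kmt2d had an unadjusted edgeR p under 0.05 in 6 of 6 fits, Dtx4 and Sox9 in 4, Tcf7 in 3, Spen, Hk2 and Npm1 in 2, Tfrc in 1 and Tle2 in 0.

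The relatives of the 10 genes come first. Of the HES and HEY relatives, 2 were tested. Against 6.36% of all genes tested, 1 of these had an unadjusted p under 0.05. This was Bhlhe40, a helix-loop-helix repressor linked to the clock and to hypoxia, at 258, 215 and 299 CPM in control tumors against 194, 177 and 170 CPM in SS tumors. The groups did not overlap, and the log2 fold change was -0.51 ± 0.13 (SE) (unadjusted p = 0.00528, adjusted p = 0.760 in edgeR's test). Bhlhe41 had a log2 fold change of -0.32, Hes7 was at 5 counts or fewer, and Hes2, Hes3, Hes5 and Helt had no row in the table used here. Of the 15 Deltex genes and other regulators, Dtx4 alone had an unadjusted p under 0.05, which is 6.67% of the list against 6.36% of all genes tested. This relative of Dtx1 was at 81.3, 105 and 103 CPM in control tumors against 65.8, 72.7 and 77.9 CPM in SS tumors, for a log2 fold change of -0.42 ± 0.14 (SE) (unadjusted p = 0.0146, adjusted p = 0.771 in edgeR's test). The groups did not overlap for Dtx4. That held for 3 of the 15 genes of this list, 1 higher and 2 lower in SS tumors, and in either direction for 12.9% of all genes tested.

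The proteins that RBPJ recruits were read as corepressors and coactivators. Of 17 tested RBPJ corepressors, 3 had an unadjusted edgeR p under 0.05, all higher in SS tumors, where 3.19% of all genes tested were higher by this rule. The median log2 fold change of the list was 0.089, and 11 of the 17 lay above 0. Of these, 2 are described here. Spen, which binds RBPJ directly, was at 61.5, 58.6 and 59.4 CPM in control tumors against 79.4, 68.3 and 69.1 CPM in SS tumors (log2 fold change 0.27). Tle2, a Groucho corepressor that HES proteins also bind, was at 1.66, 2.06 and 1.85 CPM in control tumors against 3.19, 3.22 and 3.46 CPM in SS tumors (log2 fold change 0.82). For both genes the groups did not overlap, as for 12.9% of all genes tested in either direction. The unadjusted edgeR p was 0.0366 for Spen and 0.0488 for Tle2, and the adjusted p was 0.771 for each. With 1 tumor left out the unadjusted p of Tle2 was between 0.0813 and 0.109, and that of Spen was under 0.05 only without SS tumor 2 or SS tumor 3. Of the 10 coactivators, Kmt2d, a histone methyltransferase, was at 0.39 on the log2 scale (unadjusted p = 0.00948 in edgeR's test), and the median of the list was 0.026.

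Upstream of these genes, 0 of 8 tested receptors and ligands and 0 of 9 γ-secretase and ADAM genes had an unadjusted edgeR p under 0.05. Of all genes tested, 6.36% did. The medians of the 2 lists were 0.050 and 0.015 on the log2 scale. The smallest unadjusted p of these lists were those of the ligand Jag2 (log2 fold change 0.60, unadjusted p = 0.0942 in edgeR) and the γ-secretase subunit Aph1b (log2 fold change 0.80, unadjusted p = 0.173 in edgeR). Single tumors moved both. Jag2 was at 0.24 without SS tumor 2 and at 0.91 without control tumor 1 (unadjusted p = 0.0175 in edgeR), and DESeq2 on all tumors gave it an unadjusted p = 0.0386. Aph1b was at 1.26 without control tumor 2, at 0.53 without control tumor 3 and at 0.50 without SS tumor 3.

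Of 15 tested genes that have been reported as Notch targets in other tissues, 13 had a log2 fold change below 0, with a median of -0.14, where 50.2% of all genes tested lay below 0. An unadjusted edgeR p under 0.05 was seen for 3 of the 15, all lower in SS tumors, where 3.16% of all genes tested were lower by this rule. Sox9, a transcription factor of mammary progenitors, was at 105, 87.5 and 203 CPM in control tumors against 56.7, 62.0 and 85.8 CPM in SS tumors. The groups did not overlap, by a narrow margin, and the log2 fold change of -0.95 was -0.49 without control tumor 3. Tcf7, described above, was at -1.34 and at -0.58 without control tumor 1. Hk2, a hexokinase of glycolysis, was at -0.41 with an unadjusted p of 0.04998, and at -0.23 without control tumor 3. The 2 genes of the list above 0 were Ephb4, an ephrin receptor gene of veins, at 0.58 (unadjusted p = 0.0766 in edgeR), and Ccnd1, which encodes cyclin D1, at 0.13.

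For Id3, the comparison list held the other Id genes and BMP-SMAD targets. None of the 7 tested had an unadjusted edgeR p under 0.05, where 6.36% of all genes tested did. Of the 7, 5 lay below 0, as did 50.2% of all genes tested. Id1 was at 3.64, 3.83 and 3.45 CPM in control tumors against 3.27, 2.38 and 3.13 CPM in SS tumors, without overlap and with a log2 fold change of -0.31 ± 0.32 (SE). Id4 was at 4.90, 2.02 and 3.53 CPM against 0.363, 3.58 and 0.676 CPM, where SS tumor 2 alone was within the control range, and its log2 fold change was -1.22 ± 0.82 (SE). Id2 was at 260, 151 and 193 CPM in control tumors against 240, 227 and 239 CPM in SS tumors. The smallest unadjusted p of the list was that of Bambi, a decoy receptor for TGF-β family ligands (log2 fold change 0.75, unadjusted p = 0.177 in edgeR), at 0.40 without control tumor 1 and 1.16 without control tumor 2.

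For Myc, the partners and relatives and a list of target genes were read. None of 12 tested partners had an unadjusted edgeR p under 0.05, and Max, the obligate partner of MYC, was at 147, 140 and 169 CPM in control tumors against 142, 169 and 139 CPM in SS tumors. Mycn, the neural relative of Myc, was not tested because of its low counts, with 20, 16 and 14 counts in control tumors against 4, 3 and 1 in SS tumors. That is 1.58, 0.786 and 0.575 CPM against 0.290, 0.358 and 0.0845 CPM, without overlap. Mxd3, a MAX partner that opposes MYC, had the smallest p of that list (log2 fold change 1.47, unadjusted p = 0.0851 in edgeR), at 2.11 CPM or less. It was at 2.58 without control tumor 2 (unadjusted p = 0.0156 in edgeR) and at 1.05 without control tumor 1. Of 30 MYC target genes, 19 had a log2 fold change below 0, with a median of -0.081, and 2 had an unadjusted edgeR p under 0.05, in opposite directions. That is 6.67%, close to the 6.36% of all genes tested, and 50.2% of all genes lay below 0. Npm1, which encodes a nucleolar chaperone of ribosome assembly, was at 208, 240 and 247 CPM in control tumors against 199, 181 and 183 CPM in SS tumors, without overlap (log2 fold change -0.30, unadjusted p = 0.0192 in edgeR). The transferrin receptor gene Tfrc was at 17.9, 18.5 and 16.5 CPM in control tumors against 28.8, 18.4 and 24.9 CPM in SS tumors (log2 fold change 0.45, unadjusted p = 0.0496 in edgeR), and it was 0.30 without SS tumor 1.

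**Figure D4:**
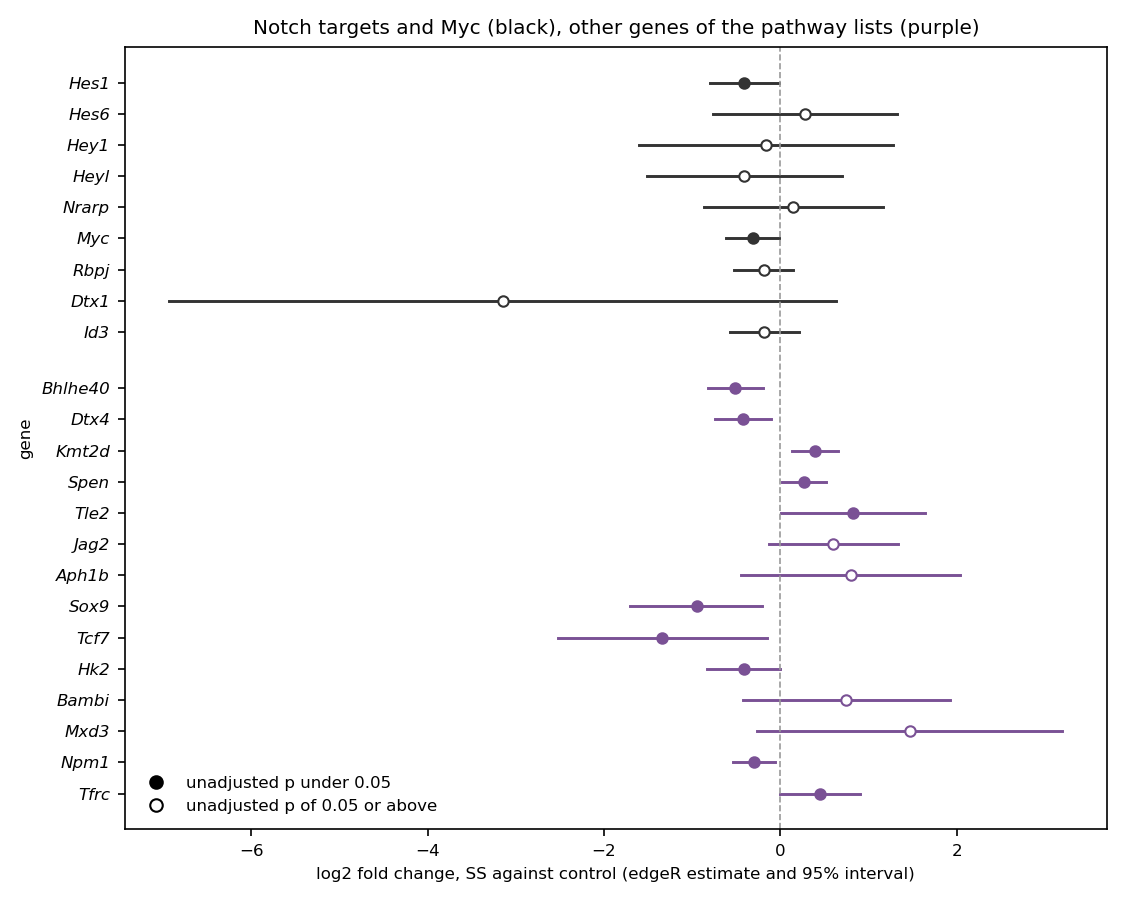
Log2 fold change (SS against control) with its 95% interval from edgeR for the 9 tested genes of the group (black) and 14 named genes of the pathway lists (purple), where a filled point marks an unadjusted p under 0.05. The intervals of Hes1 and Myc end just below 0, that of Kmt2d lies above it, and Dtx1 has by far the widest.

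The genes whose profile over the 6 tumors was most like that of Hes1 and of Myc were found from the root mean square difference of mean-centered log2 CPM. For Hes1, whose own deviation from its mean was 0.256 by this measure, they were Gm5088 (0.0387), Dtx4 (0.0562) and Tmem209 (0.0608). Dtx4 was thus second in likeness to Hes1 among all genes tested, in a measure over 6 tumors that includes the difference between the groups. For Myc, with a deviation of 0.189, they were the nuclear import receptor gene Ipo5 (0.0414), the translation initiation factor gene Eif4b (0.0468) and the ribosomal protein gene Rpl10 (0.0479). Ipo5 was at 299, 327 and 366 CPM in control tumors against 244, 273 and 266 CPM in SS tumors, and Eif4b at 1330, 1360 and 1550 CPM and 1120, 1260 and 1160 CPM. In both, as in Myc, control tumor 3 was the highest and SS tumor 1 the lowest. These genes were picked for their likeness to Myc over the same tumors, so the shared order is no separate result.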

How the data were processed

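Stranded mRNA libraries of 6 C0321 tumors were read from both ends, 75 bases each. The deposited values are estimated counts of RefSeq transcripts, not normalized, from which the authors had removed entries of very low expression. The submitters' processing notes name mm10, CASAVA 1.8.1, Bowtie2 2.2.5 and STAR 2.5.3a, with no role given, and the counting tool is not given in the sources used here. The paper's methods name quantile normalization and a t statistic per gene, used here as an alternative.

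Transcripts were summed by gene symbol, after 45 rows with symbols held as dates had been restored from their accessions, and rounded. edgeR 4.0.16 in R 4.3.3 tested 10902 genes with its filter on low counts, TMM scaling and the quasi-likelihood test, and p-values were adjusted by Benjamini-Hochberg. A standard error is the size of the log2 fold change over the root of its F statistic, and log2 CPM used a prior count of 2. The labels do not say whether tumors came from separate mice, so p-values measure the spread between these samples. Coordinates are those of the deposited table. Transcript lengths came from GENCODE M21 entries paired with the RefSeq accession, the longest where several were paired.

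The genes and the lists were chosen with earlier results of these data known. Named genes are the 10 genes, up to 4 genes per pathway list by the smallest p among those with an unadjusted p under 0.05 (or the 1 with the smallest p), and the 3 genes most like Hes1 and Myc. Genes from the marker lists, Lfng, and further list members were named after their values were seen. Alternatives were RLE and upper-quartile scaling, DESeq2 1.42.0, voom with sample weights in limma 3.58.1, other filters, the replicate block, leaving out each tumor and thinning to the smallest library. A gene that the rule names is not reported here, and the counts over its list include it.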

Additional observations from a re-analysis of the deposited data

How the results depend on the processing

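With 3 tumors per group, a change has to be large or very even to pass adjustment over 10902 genes. Thinning every library to the smallest total left the standard errors nearly as they were, from 0.448 to 0.450 for Hes6, 0.621 to 0.626 for Hey1 and 0.434 to 0.443 for Nrarp. That of Tle2 went from 0.351 to 0.426 and that of Bambi from 0.505 to 0.643, and the log2 fold changes moved from 0.283 to 0.158 for Hes6, 0.821 to 1.208 for Tle2, 0.750 to 0.381 for Bambi and 0.801 to 1.188 for Aph1b (unadjusted p = 0.0444 in edgeR). Dtx1 and Hey2 were at 0 counts in some tumors. The adjusted count of 0 genes was 35 with DESeq2's Wald test, and 0 in the other 14 settings. The count of 2 genes of the group at an unadjusted p under 0.05 was 1 with DESeq2's Wald test (Hes1), 1 with quantile normalization and a t statistic (Myc), 1 with thinned libraries (Hes1), and from 0 to 2 with each tumor left out, with 0 without control tumor 2. The 11 pathway genes became 7 with quantile normalization and from 7 to 11 with each tumor left out. The count of 0 transcripts of the group was from 0 to 1 with each tumor left out. The causes were not tested.

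The replicate numbers are not shown to pair the tumors. The deviations of same-numbered tumors from their group means correlated at 0.116, 0.021 and 0.077, and 3 of the 6 tumors correlated best with their own number. With the replicate block, 0 genes passed adjustment and 643 had an unadjusted p under 0.05, the group counted 2 (Hes1 and Dtx1, the latter at -3.724 with an unadjusted p = 0.00729 in edgeR), the pathway lists counted 7 and the transcripts 1, and Hey1 was at 0.067.

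Of 404 values of 27 named genes under these settings, 395 kept their direction and 9 changed sign. No adjusted p of these genes passed 0.05, and DESeq2 gave none for 10 of the values. Hey1 was at 0.231 with voom and 0.012 with quantile normalization, and from -0.511 to 0.734 with each tumor left out. With each tumor left out Heyl ran from -0.669 to 0.285, Nrarp from -0.069 to 0.413 and Cd3e from -1.396 to 0.316. The thinned libraries gave no value for Dtx1, which no longer passed the filter.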
